A study of Homo sapiens with 9 samples.

Results

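Making ribosomes is one of the largest tasks of a growing cell, and 36 genes of that task were followed over 9 RNA-seq libraries. They were chosen by symbol: the transcription factor gene MYC, and 35 genes for nucleolar proteins, ribosome assembly factors, RNA polymerase I and polyamine synthesis. Each of the 36 symbols matched 1 of the 61093 genes in the deposited table, and all 36 passed the filter on low values (10 or more in 3 or more libraries) that left 17492 genes for testing. The cells carry the label HepG2, a human liver tumour cell line, and form 3 groups of 3 libraries. Control cells have no treatment in the labels, the second group received SKF-96365, a compound the series text names as inhibiting TRPV2, a cation channel, and the remaining group received 2-APB, named there as an agonist. Both compounds also act on other calcium channels. No genetic change is given for any group, and dose, exposure time, vehicle, batch and day are not in the labels. Sample titles for 2-APB say ABP and the value columns say TRPV2, so this group rests on the treatment label.

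The labels do not say whether libraries of 1 group came from separate cultures, and p-values then measure only the spread between these samples, which may be technical. Depth ran from 14786059 to 19026545 reads per library, and mitochondrial genes took 6.90% to 8.04% of the reads. The liver label was not borne out by defining genes: albumin (ALB) was listed at 0 to 11.8 normalized counts, AFP at 0.992 to 8.87 and the liver regulator HNF4A at 0 to 2.58. Of 10 hepatocyte markers only SERPINA1 passed the filter (207 to 523), while the keratin gene KRT8 lay at 67866 to 92630 and the mesenchymal gene VIM at 25957 to 44039. Libraries sorted by label only in part, by Pearson r over all tested genes, which are not independent replicates. 2-APB 1 and 2-APB 2 were closest to each other (r = 0.990), as were SKF-96365 2 and SKF-96365 3 (r = 0.989). Control 2 was closest to control 1 (r = 0.978). Against the labels, control 3 was closest to SKF-96365 2 (r = 0.988), and SKF-96365 1 and 2-APB 3 to each other (r = 0.988). Control 1 was closest to 2-APB 3 (r = 0.986). Whether the labels of control 3 and SKF-96365 1 were exchanged cannot be told from the files, and every control and SKF-96365 value below carries that doubt. Group comparisons of the members are therefore also given without control 3 or SKF-96365 1.

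Ribosome assembly starts in the nucleolus, where RNA polymerase I copies the ribosomal DNA repeats into a long precursor RNA. Small nucleolar ribonucleoproteins modify that precursor, and assembly factors then fold and cut it into the RNAs of the small and the large subunit. MYC binds DNA with its partner MAX at short palindromes called E-boxes, and many genes of ribosome assembly and polyamine synthesis are textbook MYC targets. In liver tumours and other cancers, enlarged nucleoli and high MYC are classical signs of fast growth.

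Promoter windows were read from RefSeq (GRCh38.p14), from 250 bases before to 50 bases after the start of transcription, to show which members carry the MYC-type E-box. Windows were found for 30 of the 36 members, and for MYC, NOP58, NOLC1, RRP12, BOP1 and RRP1B none was used. The E-box CACGTG, which reads the same on both strands, was present in 11 of the 30 member windows (36.7%). It was present in 2030 of all 27305 promoter windows (7.43%), in 1128 of 11400 windows of tested genes (9.89%) and in 29 of 93 windows of other ribosome biogenesis genes (31.2%). All 6 windows of small subunit assembly genes held an E-box, against 2 of 6 for the large subunit, 1 of 2 for polyamine synthesis, 1 of 4 for box H/ACA proteins and 1 of 2 for box C/D proteins. None was found in the 5 windows of RNA polymerase I genes or the 5 of nucleolar chaperones. Of the 12 E-boxes, 10 began within 40 bases of the start and 6 lay downstream of it. The lines below show the E-boxes nearest the start, one per gene, with 12 bases on either side, 5′ to 3′ on the gene's strand, the E-box in capitals.
UTP4: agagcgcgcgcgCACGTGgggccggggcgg
UTP20: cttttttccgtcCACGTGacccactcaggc
WDR43: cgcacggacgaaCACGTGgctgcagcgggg
RRP9: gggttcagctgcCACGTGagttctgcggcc
NOP14: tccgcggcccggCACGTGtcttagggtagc
BYSL: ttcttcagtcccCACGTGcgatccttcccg
PES1: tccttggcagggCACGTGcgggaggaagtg
FBL: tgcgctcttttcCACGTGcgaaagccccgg
NOP10: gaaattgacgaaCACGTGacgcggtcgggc
SRM: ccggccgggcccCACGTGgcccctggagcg

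These stretches lie at chr16:69132621-69132650 (plus strand) for UTP4, chr12:101280083-101280112 (plus) for UTP20, chr2:28894658-28894687 (plus) for WDR43, chr3:51941892-51941921 (minus) for RRP9 and chr4:2963374-2963403 (minus) for NOP14. The others lie at chr6:41921515-41921544 (plus) for BYSL, chr22:30591880-30591909 (minus) for PES1, chr19:39846356-39846385 (minus) for FBL, chr15:34343130-34343159 (minus) for NOP10 and chr1:11060200-11060229 (minus) for SRM. Counted with the start as position 1 and the base before it as -1, the E-box began at -16 in UTP4, -10 in UTP20, -5 in RRP9 and -11 in NOP10. It began downstream of the start in WDR43 (4), FBL (7), PES1 (14), NOP14 (16) and BYSL (29), and far upstream in SRM (-199). NOP10 held another E-box at -170, and the E-box of the large subunit gene NOP2 is not printed. The variant CACGCG, searched on both strands, was in 10 of 30 member windows (33.3%), in 11.4% of all windows, in 17.9% of those of tested genes and in 26.9% of those of other ribosome biogenesis genes.

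To show what such a start region looks like with and without the letters, 280 bases (250 before the start to 30 after it) follow for UTP4, a small subunit assembly gene (chr16:69132399-69132678, plus strand), and for NOP56, the gene of the snoRNP list with the widest range over libraries (chr20:2652382-2652661, plus strand). UTP4 holds 1 E-box, in capitals, and NOP56 holds none.
UTP4: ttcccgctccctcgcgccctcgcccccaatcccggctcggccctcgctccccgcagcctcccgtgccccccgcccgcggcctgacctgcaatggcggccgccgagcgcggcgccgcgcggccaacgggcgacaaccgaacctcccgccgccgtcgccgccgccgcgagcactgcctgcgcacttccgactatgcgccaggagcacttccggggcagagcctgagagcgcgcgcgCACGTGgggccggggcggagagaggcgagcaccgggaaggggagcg
NOP56: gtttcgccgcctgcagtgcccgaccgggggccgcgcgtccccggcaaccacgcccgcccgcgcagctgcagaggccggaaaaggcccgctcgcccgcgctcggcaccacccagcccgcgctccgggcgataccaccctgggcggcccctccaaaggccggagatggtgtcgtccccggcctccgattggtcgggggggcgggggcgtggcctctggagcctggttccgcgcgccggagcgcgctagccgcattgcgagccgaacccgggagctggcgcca
Members with and without the E-box lay in the same libraries. Of the 11 members with it, 7 had their 3 lowest values in control 3, SKF-96365 2 and SKF-96365 3, against 14 of the 19 without it. The median log2 range over the 9 libraries was 0.74 with it and 0.76 without it. A match of letters is a description of the window only.

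MYC, a known regulator of many genes of ribosome assembly, was the only member whose groups separated in any comparison. Whether it acted on the other members in these cells was not tested. Its normalized count, the deposited value that has been divided by the library's size factor, was 2172, 1679 and 4373 in control (libraries 1, 2 and 3, an order kept throughout), then 2090, 4700 and 4693 for SKF-96365, then 1876, 1968 and 1860 for 2-APB. Control 3, SKF-96365 2 and SKF-96365 3 were high and the other 6 libraries were low, with no library between 2172 and 4373. Every 2-APB library lay below every SKF-96365 library, as for 8.79% of all tested genes, while control overlapped both treated groups. The gap lay between 2-APB 2 (1968) and SKF-96365 1 (2090), a library whose label is in doubt. The control mean was 2741 ± 1434 (SD, n = 3), against 3828 ± 1505 for SKF-96365 and 1901 ± 58.2 for 2-APB. As a share of each library's reads, in CPM, MYC was at 262, 277 and 272 in the 3 high libraries and at 98.2 to 129 in the others.

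On the log2(normalized count + 1) scale MYC stood 0.92 lower with 2-APB than with SKF-96365 (SE 0.37; limma adjusted p = 0.684), which is a ratio of 0.530. It stood 0.51 higher with SKF-96365 than in control (SE 0.37, limma adjusted p = 0.789), and its difference between 2-APB and control was -0.41 (SE 0.37, limma adjusted p = 1.00). None of these passed the adjusted threshold of 0.05, and neither did the F test over the 3 groups (limma adjusted p = 0.862). At an unadjusted p under 0.05 the F test picked 0 of the 36 members, where it picked 4.02% of tested genes (0% at the adjusted threshold). The difference between the treated groups kept its sign when any 1 library was left out, from -1.30 without SKF-96365 1 to -0.72 without SKF-96365 2. Against control, the 2-APB value depended on control 3: it was -0.0069 without that library and -0.70 without control 2.

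**Figure D1:**
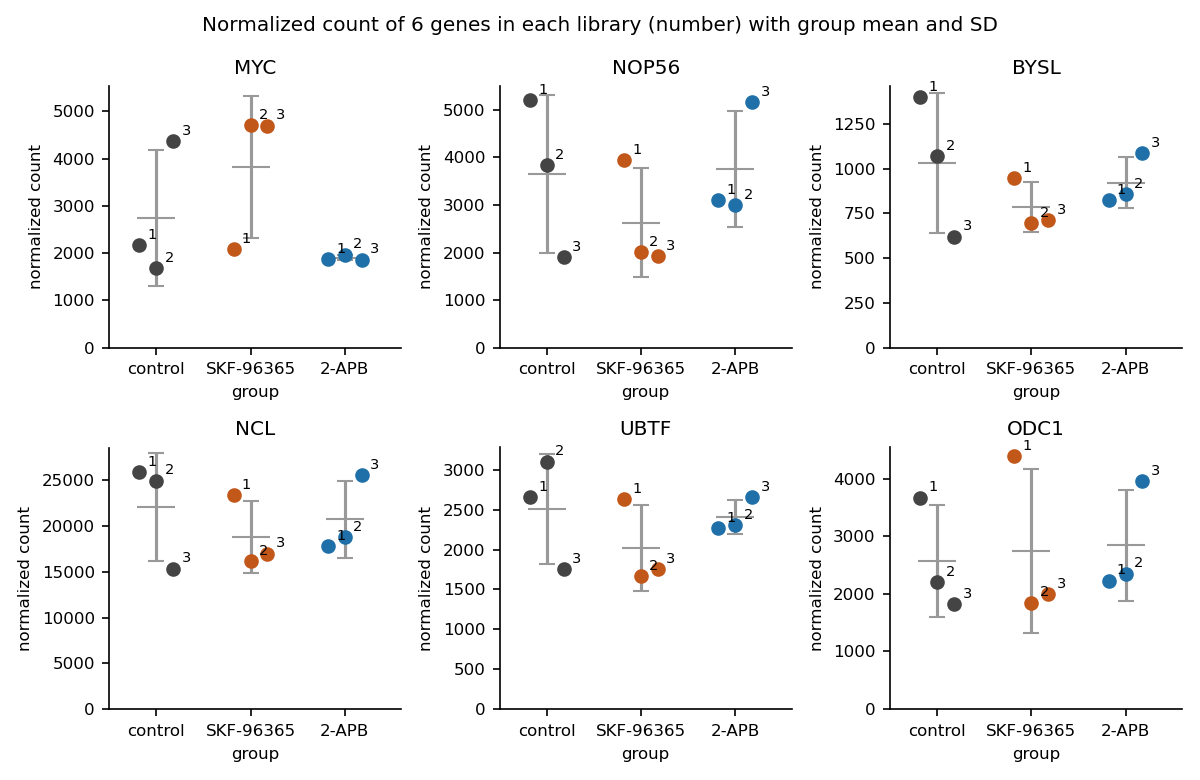
Normalized count (vertical axis, from 0) of 6 of the 36 genes in each of the 9 libraries; points are libraries and horizontal bars are group means. MYC is high in control 3, SKF-96365 2 and SKF-96365 3, where NOP56, BYSL, NCL, UBTF and ODC1 are low.

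NOP56, NOP58 and FBL encode the protein core of box C/D snoRNPs, the particles that guide methylation of ribosomal RNA, with fibrillarin (FBL) as the methyltransferase. NOP56 had the widest range of the 35 genes other than MYC: 5207, 3845 and 1906 for control, then 3949, 2006 and 1923 for SKF-96365, then 3097, 2991 and 5159 for 2-APB, a 2.73-fold range. Control 3, SKF-96365 2 and SKF-96365 3 were the lowest of the 9 and lay close together, and both treated groups overlapped control. NOP58, its partner in the particle, gave 2942, 2346 and 1440, then 2631, 1466 and 1396, then 2093, 2138 and 2918, with the same 3 libraries lowest. FBL was flatter, from 1388 in control 2 to 2138 in 2-APB 3, and its lowest library was a different one. NOP56 differed by -0.44 between SKF-96365 and control (SE 0.39, limma adjusted p = 0.792) and by 0.55 between 2-APB and SKF-96365 (SE 0.39, adjusted p = 0.720).

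The box H/ACA proteins are the core of particles that guide conversion of uridine to pseudouridine, with DKC1 as the enzyme. DKC1 read 4037, 3678 and 2259 for control, then 3512, 2366 and 2328 for SKF-96365, then 2792, 2739 and 3582 for 2-APB. GAR1 read 697, 618 and 437, then 761, 411 and 435, then 481, 536 and 724. In both genes control 3, SKF-96365 2 and SKF-96365 3 formed the low set and SKF-96365 1 lay with control 1 and 2, so the groups overlapped. The small partners NHP2 (644 to 915) and NOP10 (737 to 1060) varied less, by 1.42-fold and 1.44-fold. NHP2 shares 27.4% of its exon bases with RMND5B on the opposite strand, and as the strand setting is not given, reads of that stretch cannot be told apart.

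Nucleolin (NCL) and nucleophosmin (NPM1), abundant histone and RNA chaperones of the nucleolus, were the most abundant members. Their means over the 9 libraries were 5870 normalized counts per kilobase of exon for NPM1 and 2966 for NCL. The length is that of all annotated exons of a gene together, so such levels compare genes only roughly. NCL counts were 25934, 24961 and 15349 for control, then 23353, 16156 and 16985 for SKF-96365, then 17844, 18797 and 25599 for 2-APB. NPM1 ran from 17124 in control 3 to 27998 in 2-APB 3. It has 49 listed pseudogenes, of which 6 reached 10 counts in some library. Their summed level was 441 to 701, small beside NPM1 itself, though reads shared between near-identical copies make its value less certain.

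LYAR, a nucleolar zinc-finger protein, read 966, 790 and 494 for control, then 869, 470 and 479 for SKF-96365, then 555, 521 and 918 for 2-APB. GNL3, the nucleolar GTPase nucleostemin, read 3041, 2300 and 2064, then 3215, 2207 and 2249, then 2406, 2448 and 3500. In LYAR 5 libraries sat at 470 to 555 and 4 at 790 to 966, with every group represented in both sets. The RNA helicase DDX21 (5451 to 8977) and the phosphoprotein NOLC1 (3841 to 6312) were lowest in control 3 and highest in control 1.

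RNA polymerase I was represented by 3 subunits and 2 factors. UBTF, which opens ribosomal DNA for the polymerase, read 2661, 3103 and 1755 for control, then 2636, 1663 and 1752 for SKF-96365, then 2272, 2302 and 2659 for 2-APB. POLR1C, a subunit shared with RNA polymerase III, read 904, 656 and 581, then 849, 528 and 569, then 629, 583 and 803. The low set was again control 3, SKF-96365 2 and SKF-96365 3 in both, although for POLR1C it ended just below 2-APB 2. The large subunits POLR1A (1870 to 3017) and POLR1B (1451 to 2208) had the same 3 libraries lowest. RRN3, the factor that brings the polymerase to its promoter, lay highest in SKF-96365 1 (1625) and between 1050 and 1308 in the other 8 libraries. RRN3 has 4 listed pseudogenes, whose summed level was 288 to 366.

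Of the 7 small subunit assembly genes, BYSL had the widest range. This gene, for the late assembly factor bystin, read 1401, 1072 and 621 for control, then 948, 696 and 712 for SKF-96365, then 823, 856 and 1086 for 2-APB. UTP4, a scaffold protein of the processome that builds the small subunit, read 1642, 1509 and 951, then 1450, 1013 and 891, then 1150, 1177 and 1555. RRP9, a U3 snoRNP protein, read 866, 610 and 534, then 802, 488 and 539, then 583, 561 and 805. All 3 genes were highest in control 1, and the low libraries were control 3, SKF-96365 2 and SKF-96365 3. The 3 groups overlapped in each of them. UTP20, WDR43, NOP14 and RRP12 had ranges of 1.61-fold to 1.71-fold, and each was highest in control 1.

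The large subunit list holds the PeBoW complex (PES1, BOP1 and WDR12), which processes the large subunit RNAs, and 5 further assembly factors. BOP1 read 2650, 2328 and 1482 for control, then 2483, 1442 and 1498 for SKF-96365, then 1756, 1666 and 2828 for 2-APB. PES1, its partner, ran from 1484 in control 3 to 2452 in 2-APB 3. WDR12, the other partner, had the smallest range of all members, 1.37-fold, with 2268, 2095 and 1749, then 2214, 1657 and 1922, then 1857, 1980 and 2067. Within this complex BOP1 had a 1.96-fold range and WDR12 the narrowest. NOP16 read 738, 550 and 374, then 608, 350 and 346, then 437, 398 and 717. It shares 12.02% of its exon bases with ARL10 (461 to 993) and 7.93% with HIGD2A (216 to 339), both on the opposite strand. As for NHP2, reads of those stretches cannot be told apart.

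NOP2 and PPAN were listed far below the other members. NOP2, an RNA methyltransferase, read 39.99, 40.6 and 21.9 for control, then 47.2, 24.7 and 19.8 for SKF-96365, then 34.0, 44.7 and 51.3 for 2-APB. PPAN ran from 60.1 in 2-APB 2 to 85.6 in SKF-96365 1. In GENCODE 29, 54.4% of the NOP2 exon bases also belong to AC006064.6 on the same strand, and 56.0% of the PPAN exon bases to the read-through gene PPAN-P2RY11. A counter that drops reads shared by more than 1 gene would lower both values, and the counting rule is not given in the sources used here. Their levels are therefore uncertain. RRP1B (1611 to 2408) and WDR74 (436 to 719) completed the list.

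Polyamines stabilise ribosomal RNA, and ornithine decarboxylase (ODC1) and spermidine synthase (SRM) make them. ODC1 read 3670, 2205 and 1822 for control, then 4389, 1849 and 2002 for SKF-96365, then 2231, 2352 and 3957 for 2-APB. SRM read 2015, 1923 and 1167, then 1602, 1162 and 1204, then 1299, 1315 and 2021. Control 3, SKF-96365 2 and SKF-96365 3 were again the lowest 3 in both genes. ODC1 differed from SRM in its top library, SKF-96365 1, and in control 2, which lay close to the low set.

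**Figure D2:**
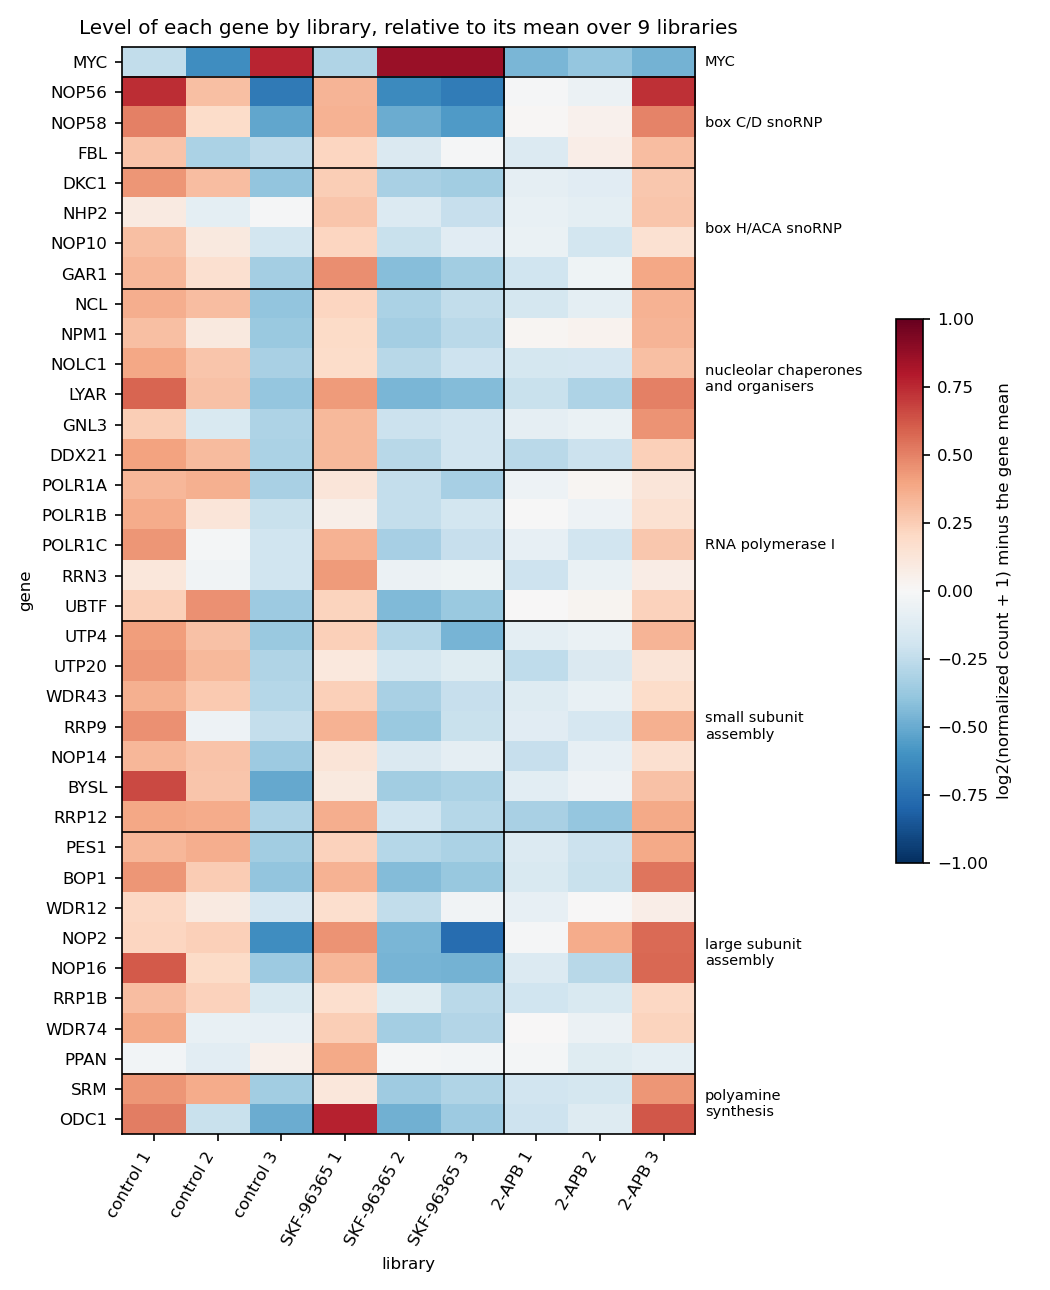
Each row is 1 of the 36 genes in role order and each column 1 of the 9 libraries; colour gives log2(normalized count + 1) minus the gene's mean over libraries. The columns of control 3, SKF-96365 2 and SKF-96365 3 show MYC above its mean and nearly all other genes below theirs.

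Seen together, the 35 genes other than MYC followed the libraries more than the groups. Their 3 lowest values were in control 3, SKF-96365 2 and SKF-96365 3 for 24 of 35 (68.6%), a pattern found in 17.6% of all tested genes and in 63 of 106 other ribosome biogenesis genes (59.4%). In 32 of 35 (91.4%) these 3 libraries all lay below control 1, control 2 and SKF-96365 1, against 25.4% of all tested genes, and the exceptions were FBL, NHP2 and PPAN. MYC had its 3 highest values in the same libraries, as did 16.4% of tested genes and 0 of the 35. These counts describe the members and were not tested, because the pattern was seen before it was counted.

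Relative to control 3, the median member stood at 1.61-fold in control 1, 1.52-fold in control 2 and 1.501-fold in SKF-96365 1, and at 1.02-fold in both SKF-96365 2 and SKF-96365 3. The 3 libraries of 2-APB were split as well. Their medians relative to control 3 were 1.11-fold, 1.13-fold and 1.55-fold, and 34 of 35 genes (97.1%; 41.7% of all tested genes) were lower in 2-APB 1 and 2-APB 2 than in 2-APB 3, PPAN being the exception. MYC did not follow this split, with 1876, 1968 and 1860 in those libraries. Summed over the 36 genes, their share of the reads was lowest in control 3, SKF-96365 2 and SKF-96365 3 (4908 to 5041 CPM). It was 5804 and 5890 CPM in 2-APB 1 and 2-APB 2, and 6799 to 7722 CPM in the other 4 libraries.

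The differences between libraries were moderate in size. Fold ranges over the 9 libraries ran from 1.37 for WDR12 to 2.73 for NOP56 with a median of 1.69. The median log2 range of the 35 genes was 0.76, against 0.86 in all tested genes and 0.55 in the 6356 tested genes with a mean of at least 500. By role, the median fold range was 2.11 for box C/D proteins, 2.07 for polyamine synthesis, 1.71 for small subunit assembly, 1.67 for nucleolar chaperones, 1.65 for large subunit assembly, and 1.61 for both the box H/ACA proteins and RNA polymerase I.

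Proliferation markers were mostly lowest in the same 3 libraries as the members, but the other libraries were ordered differently. For 7 of 8 of them (MKI67, PCNA, TOP2A, CCNB1, CDK1, MCM2, MCM5 and CCNE2 were read) the 3 lowest values were in control 3, SKF-96365 2 and SKF-96365 3. Their summed share of reads was 1571 to 1652 CPM in those 3 libraries and 2000 to 2916 in the other 6. In SKF-96365 1, 2-APB 1 and 2-APB 2 the markers' median log2 level relative to the gene mean was -0.02, 0.09 and 0.10. The median of the 35 members other than MYC was 0.24, -0.11 and -0.10 there. Every 2-APB library lay above every SKF-96365 library for 6 of 8 markers (8.21% of all tested genes, 0 of the 36 members). None of the 8 markers was called. Mesenchymal markers, all 10 of them tested, summed to 4751 to 5005 in the 3 libraries and 3729 to 4529 elsewhere. Epithelial markers (KRT8, KRT18, KRT19, EPCAM and CDH1) summed to 6533 to 6921 CPM in the 3 libraries and 7483 to 8744 CPM in the other 6. Such a sum follows its most abundant genes. The median log2 level relative to the gene mean, over the 4 tested epithelial markers, did not split the libraries this way. It was -0.27 to 0.06 in the 3 libraries and -0.13 to 0.25 in the other 6. None of the 4 leukocyte markers passed the filter, and their sum was at most 0.424 CPM. Hepatocyte markers summed to 13.0 to 32.5 over all 9 libraries. The part of cell growth or cell mixture in the member values was not tested, and in bulk RNA fewer cells of a type and less RNA per cell cannot be told apart.

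**Figure D3:**
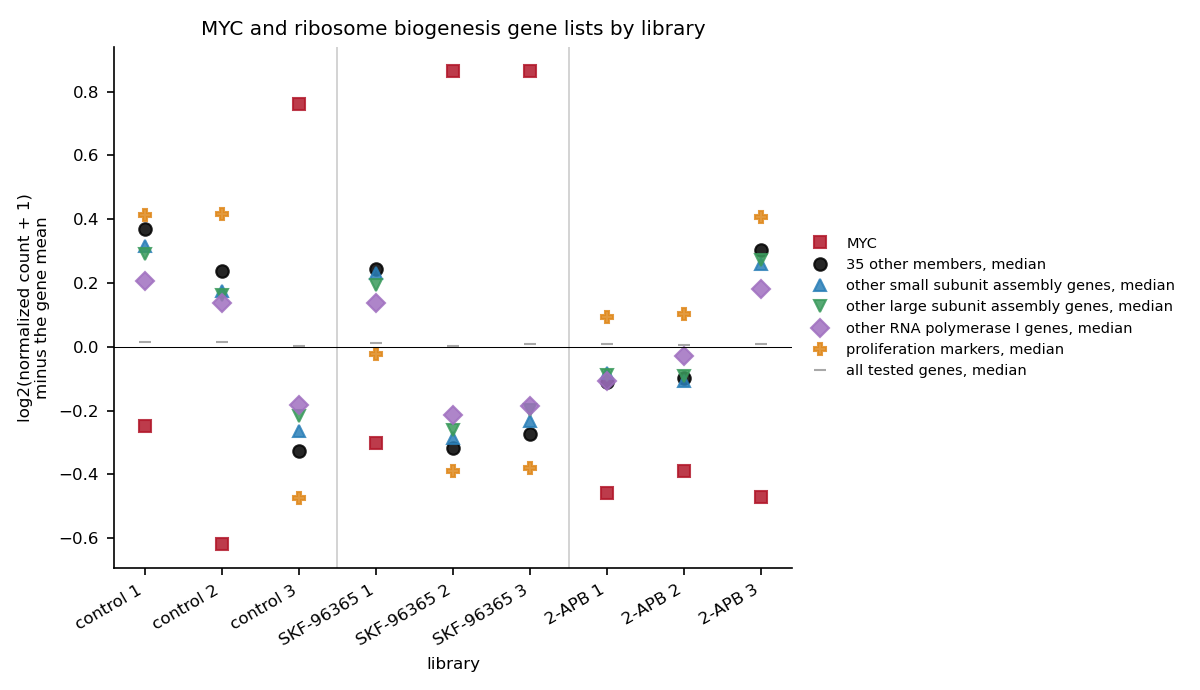
Median over each gene list of log2(normalized count + 1) minus the gene mean (vertical axis) in each library; squares show MYC alone and black circles the 35 other members. For control 3, SKF-96365 2 and SKF-96365 3 the members' medians are -0.33, -0.32 and -0.27, where MYC is at 0.76, 0.87 and 0.86.

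The inhibitor is compared with control first. Of the 36 members, 6 stood higher and 30 lower with SKF-96365, with a median log2 difference of -0.20, where 50.5% of all tested genes stood lower and their median was -0.00. None of the differences passed limma's test: 0 members were called in either direction (0% of all tested genes), and 0 had an unadjusted p under 0.05, where the background was 2.06% higher and 1.94% lower. No member had groups that did not overlap (3.26% of tested genes higher and 2.94% lower). The largest differences were MYC at 0.51, NOP56 at -0.44, NOP16 at -0.35 (SE 0.31), SRM at -0.34 (SE 0.24) and BYSL at -0.33 (SE 0.26). FBL, GNL3, RRN3, PPAN and ODC1 were the 5 that stood higher besides MYC, by 0.05 to 0.15.

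All 7 small subunit assembly genes and all 4 box H/ACA genes stood lower with SKF-96365, with medians of -0.21 and -0.14. The small subunit count was the same under the 5 other scalings or tools, and the box H/ACA count was 3 of 4 under equal upper quartiles, quantile normalization and edgeR. Of the other lists, 7 of 8 large subunit genes, 5 of 6 nucleolar chaperones, 4 of 5 RNA polymerase I genes and 2 of 3 box C/D genes stood lower. These signs hang on a few libraries. Leaving out 1 library at a time, the 35 genes other than MYC gave between 24 lower (median -0.07, without control 1) and 33 lower (median -0.38, without SKF-96365 1). Without control 3 the median was -0.41, 14 of them stood lower at an unadjusted p under 0.05, as did 12.9% of all tested genes in that fit (12.6% higher), and 0 were called.

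When control 3 and SKF-96365 1 were both left out, 23 members were called by limma between SKF-96365 and control, MYC higher and 22 others lower. MYC then stood 1.30 higher (adjusted p = 0.000575), NOP56 differed by -1.19 (adjusted p = 0.00814), BYSL by -0.80 (adjusted p = 0.00849) and UBTF by -0.75 (adjusted p = 0.00302), and the median of the 35 was -0.59. Across all genes that fit called 4784, 13.2% of those tested as higher and 14.9% as lower. These libraries were chosen because they lay with another group, so the p-values are too small, and the labels give no ground for leaving them out.

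**Figure D4:**
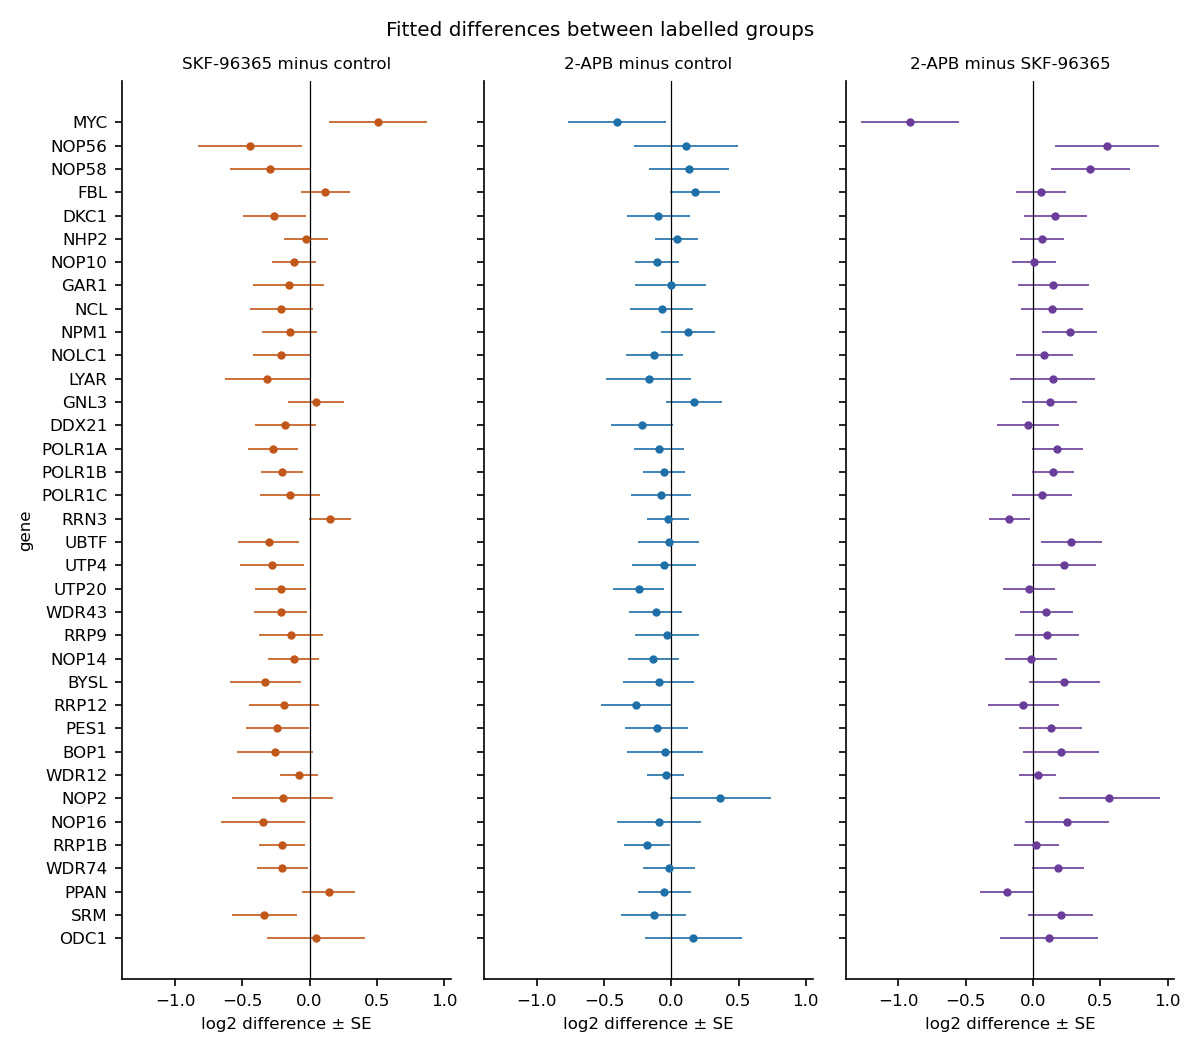
Log2 difference (horizontal axis) with its standard error for each of the 36 genes in the 3 comparisons. The MYC difference between 2-APB and SKF-96365, -0.92 with a standard error of 0.37, is the farthest from 0, and the members other than MYC lie mostly below 0 with SKF-96365 against control.

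The agonist was compared with the same 3 control libraries, so the values below are not independent of those above. Of the 36 members, 8 stood higher and 28 lower, with a median of -0.06, where 50.3% of tested genes stood lower. None was called (0% of tested genes), none had an unadjusted p under 0.05 (background 1.37% higher and 1.43% lower), and none had groups that did not overlap (3.61% higher and 3.97% lower). The differences ran from -0.41 for MYC to 0.37 for NOP2 (SE 0.38, limma adjusted p = 1.00). NOP56, NOP58 and FBL, the box C/D proteins, were at 0.11, 0.13 and 0.18, while all 7 small subunit and all 5 RNA polymerase I genes were at negative values, with medians of -0.12 and -0.06. These counts were 6 of 7 and 2 to 3 of 5 with equal upper quartiles, with equal totals and after quantile normalization.

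The median of the 35 genes other than MYC turned above 0 only when control 1 was left out. It stayed below 0 without any other library, though at -0.0019 without 2-APB 1. Scaling moved the count but not the sign of the median: of the 35 genes other than MYC, 27 stood lower on the deposited scale (median -0.06), 22 with equal upper quartiles (-0.02), 20 with equal totals (-0.0083) and 19 after quantile normalization (-0.03). The median of all tested genes moved too, from -0.0016 as deposited to 0.04 with equal upper quartiles, 0.05 with equal totals and 0.0083 after quantile normalization. Without control 1, 29 of the 35 genes stood higher (median 0.07), and without control 3, 31 stood lower (median -0.30). Without 2-APB 3, 32 stood lower (median -0.20). Without control 3, 3 of the 35 (8.57%) stood lower at an unadjusted limma p under 0.05, as did 4.13% of all tested genes in that fit (5.48% higher). Without control 3 and SKF-96365 1 together, 11 of the 35 (31.4%) did, against 8.12% of all tested genes (7.88% higher). None was called in either fit, and the limit given above on such p-values holds here too.

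2-APB against SKF-96365 sets the agonist beside the inhibitor. Of the 36 members, 29 stood higher and 7 lower with 2-APB, with a median of 0.13, where 49% of tested genes stood lower. None was called (0% of tested genes). MYC was the only member with an unadjusted p under 0.05, lower, as were 4.09% of tested genes (3.21% higher), and the only member whose groups did not overlap, as for 8.79% of tested genes in that direction and 8.21% in the other. NOP2 stood 0.57 higher (SE 0.38), NOP56 0.55 (SE 0.39) and NOP58 0.43 (SE 0.29), and the lowest adjusted p among these was 0.711 (limma). All 3 box C/D, all 4 box H/ACA and both polyamine genes stood higher with 2-APB (3 of 4 box H/ACA genes under edgeR), and so did 7 of 8 large subunit genes, 5 of 6 nucleolar chaperones and 4 of 5 RNA polymerase I genes. The small subunit assembly genes were divided on the deposited scale, with 4 higher and 3 lower (median 0.10). This count depended on scaling: 1 of 7 stood lower with equal totals (median 0.15) and 2 of 7 after quantile normalization (median 0.10).

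Again 1 library could turn the direction. Without 2-APB 3, 23 of the 35 genes other than MYC stood lower (median -0.03), and without SKF-96365 2, 19 stood higher (median 0.01). Without SKF-96365 1, 33 stood higher (median 0.31) and 5 (14.3%) stood higher at an unadjusted p under 0.05, as did 8.12% of all tested genes in that fit. When control 3 and SKF-96365 1 were both left out, limma called 6 members: MYC at -1.30 (adjusted p = 0.000442) and NOP56, NOP58, NPM1, POLR1A and UBTF at 0.32 to 0.89. That is 16.7% of the members, near the 13.3% of all tested genes called in that fit, and the limit given above on such p-values holds here too.

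**Figure D5:**
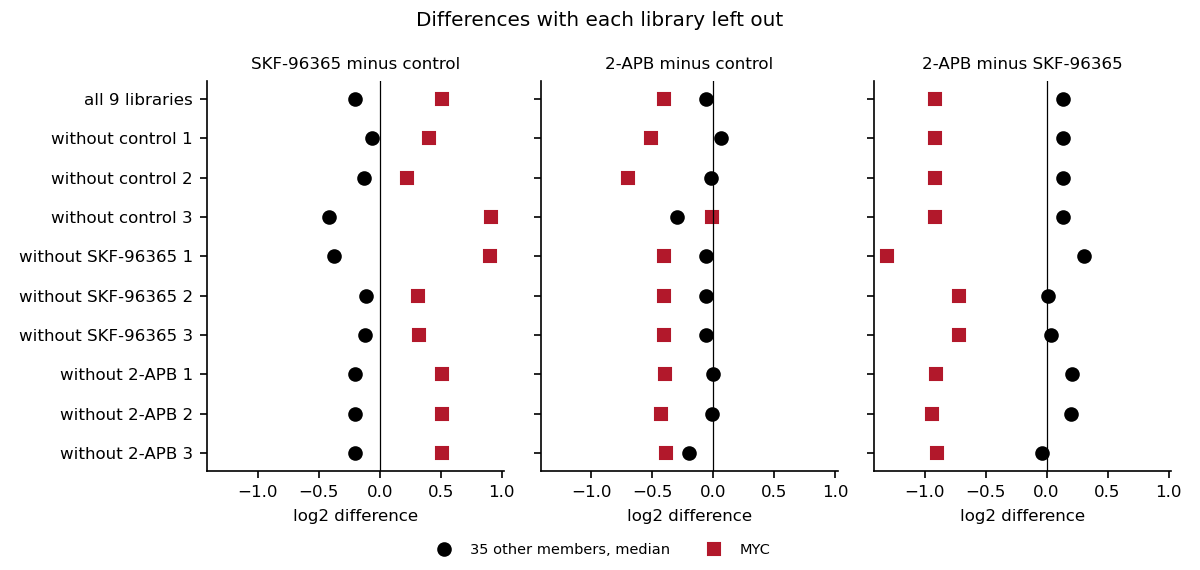
Median log2 difference of the 35 genes other than MYC, and the MYC difference, in each comparison with all 9 libraries and with each library left out in turn. The SKF-96365 median stays below 0, from -0.07 to -0.41, while the 2-APB medians lie on both sides of 0.

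Other genes of the same pathways, listed apart from the members, lay in the same libraries. Among 46 small subunit assembly genes, 42 stood lower with SKF-96365 than in control (median -0.17), as did 42 of 49 large subunit genes (-0.16) and 8 of 11 RNA polymerase I genes (-0.10). Of all tested genes, 50.5% stood lower. None of these other genes was called (0% of all tested genes). At an unadjusted limma p under 0.05, 2 of the small subunit genes stood lower, as did 1.94% of all tested genes. The counts for other genes here and below are given with all 9 libraries only. RRS1, a large subunit assembly factor, read 1269, 1180 and 561 for control, then 1062, 464 and 459 for SKF-96365, then 665, 682 and 1137 for 2-APB. MRTO4, another large subunit factor, read 2137, 1697 and 914, then 1987, 912 and 1035, then 1349, 1287 and 2221. Both were low in control 3, SKF-96365 2 and SKF-96365 3.

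Of 8 other polyamine genes 7 were tested, and 5 stood lower and 2 higher with SKF-96365 than in control (median -0.08). SAT1, which starts polyamine breakdown, read 1025, 789 and 3612 for control, then 1734, 3462 and 3358 for SKF-96365, then 1125, 1068 and 1113 for 2-APB, high where ODC1 and SRM were low. AMD1, which supplies the aminopropyl donor for synthesis, read 2087, 2174 and 1037, then 1714, 1069 and 1223, then 1437, 1491 and 1746, low in the 3 libraries where SAT1 was high. SMOX, another breakdown enzyme, named here after its values were seen, did not share the SAT1 profile: for control 3, SKF-96365 2 and SKF-96365 3 it read 355, 309 and 290, against 312 to 563 elsewhere. SAT1 stood 1.30 lower with 2-APB than with SKF-96365 and was not called. Its groups did not overlap, as for 8.79% of all tested genes in that direction. In the MYC network, 10 of 11 genes were tested, and 6 stood higher and 4 lower with SKF-96365 than in control (median 0.13). MYCL, a MYC relative, read 13.2 to 52.2, and MXD4, a MAX partner that opposes MYC, 244 to 530 with its highest values in 2-APB 1 and 2-APB 2.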

How the data were processed

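Per the labels, a SMARTER kit for mRNA was used on total RNA of each sample. The authors deposited 1 table of gene-level signal, counts divided by 1 DESeq2 size factor per library, per the submitters' processing notes, which give no version. Aligner, counter, build, annotation and strand are not given in the sources used here. Every value was a whole multiple of its library's smallest step within 0.001 reads, so whole reads were recovered. In SKF-96365 3 that step, 0.992, is so near 1 that rounding cannot be told apart by the step alone, but its values were whole multiples too, and all 9 libraries entered the count tests. Unnamed loci (488) took at most 0.275% of reads.

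Symbols came from gene identifiers (60463 from the gene name table, 130 from GENCODE 29). limma 3.58.1 with a variance trend (R 4.3.3) was run on log2(normalized count + 1) over 17492 genes with at least 10 in at least 3 libraries, with 3 two-sided contrasts, 1 F test and Benjamini-Hochberg adjustment over all tested genes at 0.05. A fold change on this scale understates that of low genes. The procedure was tested on simulated counts. edgeR 4.0.16 (TMM) and DESeq2 1.42.0 on recovered reads, other pseudocounts, filters and scalings, a block and left-out libraries were alternatives. Without molecular identifiers, PCR copies count as reads.

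Members and lists were chosen with earlier results of these data known. Values are printed for MYC, for the 2 members of each role with the widest range (3 in roles of more than 5), for the member with the narrowest, and for the 2 genes of each other list with the widest range; RNA polymerase I and small subunit genes of those other lists are given by counts only. Same-numbered libraries did not pair.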

Additional observations from a re-analysis of the deposited data

How the results depend on the processing

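With all 9 libraries limma called 0 genes in each comparison and in the F test, and at an unadjusted p under 0.05 there were 699 genes (SKF-96365 against control), 489 (2-APB against control), 1277 (2-APB against SKF-96365) and 704 (F test). DESeq2 called 1, 0, 5 and 2, and edgeR called 0 in each comparison; neither called a member. A fit on only the libraries of the groups compared called 4 genes between 2-APB and SKF-96365. Leaving out 1 library at a time, the SKF-96365 comparison called 0 to 173 genes, the 2-APB against SKF-96365 comparison 0 to 4 and the F test 0 to 4, each highest without control 3. Without control 3 and SKF-96365 1 together, the counts were 4784, 2264 and 3522, with 23 and 6 members called in the first 2 of these, and the median of the 36 members between SKF-96365 and control was -0.58 instead of -0.20. For 2-APB against control no alternative moved a count of calls.

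The spread (SD) of the members' median between libraries of a group was 0.308. It served as 1 limit for all genes and is not the spread of each gene. Counting only differences of the 19 named members that an alternative could change, 18 of 399 moved by more than this limit when libraries were left out, by up to 0.79. Under other pseudocounts, scalings and count models 0 of 399 did, and the largest shift was 0.12. The replicate numbers did not pair the libraries. After each gene's group mean was taken off its log2 levels, same-numbered libraries correlated at -0.352 to 0.498 over tested genes. A limma fit with the numbers as a block called 0 genes, with smallest adjusted p of 0.810, 1.00 and 0.203. Each number occurs once in every group, so such a block cannot change a group difference. The member medians of -0.20, -0.06 and 0.13 were therefore bound to stay the same. Counting depth limits NOP2 and PPAN most, as the members with the fewest reads. The number of libraries, 3 a group, and the libraries that lie with another group limit every comparison.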
